A study of Mus musculus with 14 samples.

Results

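The ventricular response to transverse aortic constriction (TAC), an operation that narrows the aortic arch and so puts a pressure load on the left ventricle, was measured here over 2 genotype labels at once. All 14 of the 14 polyA-enriched mouse ventricle libraries were used, 4 of Rad KO and 4 of WT after TAC, and 3 of Rad KO and 3 of WT after a sham operation. They were compared as 8 TAC libraries against 6 sham libraries in a single model with operation and genotype label as additive terms, and the operation term is reported. Rad KO is a knockout of Rad, the product of Rrad, an RGK-family GTPase that holds back L-type calcium channels in the heart. TAC was done 4 weeks before tamoxifen was given, and hearts were taken over 2 months past TAC and over 1 month past the knockout. Age, sex, strain and the driver of the recombinase were not given in the sources used here, and neither is whether sham or WT animals had tamoxifen. No label says whether the libraries of a group are from different animals, and the p-values then measure only the spread between these libraries, which may be technical. An additive model estimates the response common to both labels, and it gives a gene whose response differs between the labels a value between the 2 responses.

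Pressure load makes cardiac muscle cells grow and brings back a fetal pattern of expression, with natriuretic peptides and the slow myosin heavy chain as its best known members. Stretch acts through the sarcomere, the costamere and the cytoskeleton on transcription factors that include TEAD, AP-1, NFAT and MEF2 proteins. Fibroblasts lay down collagen and the glycoproteins that organise it, while genes of fatty acid oxidation and repolarising potassium currents are known to be lower in loaded or failing ventricles.

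The promoters of 4 load-responsive genes that rose are shown because such genes are the usual readout of pressure load in this tissue. They are the natriuretic peptide genes Nppa and Nppb, the stretch-responsive titin-binding repressor Ankrd1 and the skeletal actin Acta1. Each sequence is the 250 bases before the RefSeq start on the gene's own strand, in build GRCm38.p6, and capitals mark GGAATG, the core of the M-CAT element that TEAD proteins bind, and TATAAA, on either strand. The positions were chr4:147985650-147985899, plus strand, for Nppb, chr4:148000472-148000721, plus strand, for Nppa, chr19:36119845-36120094, minus strand, for Ankrd1 and chr8:123894776-123895025, minus strand, for Acta1.
Nppb: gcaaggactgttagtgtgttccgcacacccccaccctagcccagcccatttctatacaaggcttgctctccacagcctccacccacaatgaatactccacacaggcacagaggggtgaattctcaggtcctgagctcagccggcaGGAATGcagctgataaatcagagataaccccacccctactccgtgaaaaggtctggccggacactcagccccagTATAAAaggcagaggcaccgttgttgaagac
Nppa: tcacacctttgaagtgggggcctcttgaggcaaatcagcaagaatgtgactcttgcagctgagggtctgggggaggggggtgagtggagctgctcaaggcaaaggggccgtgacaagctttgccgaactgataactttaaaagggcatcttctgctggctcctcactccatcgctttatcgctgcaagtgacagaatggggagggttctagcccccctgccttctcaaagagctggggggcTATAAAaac
Ankrd1: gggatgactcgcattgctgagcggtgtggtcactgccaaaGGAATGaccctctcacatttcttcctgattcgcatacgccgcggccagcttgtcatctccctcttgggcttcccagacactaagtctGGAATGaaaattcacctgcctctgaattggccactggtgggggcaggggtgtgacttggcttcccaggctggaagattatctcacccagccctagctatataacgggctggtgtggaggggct
Acta1: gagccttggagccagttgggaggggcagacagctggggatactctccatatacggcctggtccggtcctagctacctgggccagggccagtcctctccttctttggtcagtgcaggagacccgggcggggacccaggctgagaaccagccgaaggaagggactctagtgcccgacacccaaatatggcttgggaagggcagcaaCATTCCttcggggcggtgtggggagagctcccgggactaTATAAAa
GGAATG stood 2 times before Ankrd1 and 1 time before Nppb, and 1 time on the opposite strand before Acta1, where it is printed as CATTCC. Nppa held no GGAATG in this window, and TATAAA stood 1 time each before Nppa, Nppb and Acta1. The RefSeq start of Nppb lies inside the gene as placed in the deposited tables, with coordinates given below. Part of the Nppb window, with both marked motifs, therefore lies within that gene. Over all tested genes considered, 10939 of 14335 were matched to a RefSeq promoter. GGAATG was in 12.4% of 951 promoters of genes that rose, 12.1% of 688 promoters of genes that fell, 11.1% of 13962 promoters of tested genes and 12.6% of all 32851 promoters of the table. TGANTCA, the AP-1 motif searched on both strands, was in 7.47% of promoters of genes that rose, 4.65% of those of genes that fell, 4.64% of those of tested genes and 6.75% of the table. AAGGTCA, a motif of nuclear receptors, was in 2.84%, 3.34% and 2.92% of promoters of genes that rose, genes that fell and tested genes, and in 4.08% of the table. TATAAA was in 8.31%, 7.56% and 6.80% in the same order, and in 12.4% of the table. No motif contains another, matches of different motifs were counted separately even where they overlapped, the windows are the same 250 bases throughout, and a match is a string of letters and not a bound site.

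Depth was similar in all libraries but WT sham 1. The total count was 14546176 to 17652010 in TAC libraries and 14606999 to 23314792 in sham libraries, and mitochondrial transcripts took 18.2 to 21.97% of counts in TAC and 20.1 to 28.4% in sham. Levels are CPM (counts per 1000000 counts) with TMM scaling, given from here on as the lowest, the median and the highest of the 8 TAC and of the 6 sham libraries. Rrad, the targeted gene, had 119, 203 and 242 CPM in TAC, against 162, 206 and 229 CPM in sham, with a log2 fold change of -0.15 (SE 0.15, adjusted p = 0.797) for Rad KO against WT and of -0.09 (SE 0.15) for TAC against sham. The gene-level count covers exons whether or not they were deleted, so directions drawn from the genotype label rest on the label. Esr1, an oestrogen receptor gene, parted the libraries: 4 TAC libraries, all Rad KO, had 338 to 2461 CPM and 4, all WT, had 0.556 to 1.61 CPM. In sham, 4 libraries had 1504 to 2224 CPM and 2, Rad KO sham 2 and WT sham 1, had 1.12 and 1.27 CPM. Esr1 level therefore followed the label in TAC libraries and crossed it in sham libraries. Counts of called genes are also given below from a model with the Esr1 level as a covariate, and from the 8 TAC and 3 sham libraries left without WT sham 2, WT sham 3 and Rad KO sham 2, 3 sham libraries in which Esr1 did not match the TAC libraries of the same label.

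After TAC, genes of the loaded cardiac muscle cell and of the extracellular matrix rose, with the natriuretic peptides Nppa and Nppb, the slow myosin heavy chain Myh7, periostin, thrombospondins and lysyl oxidases among them. Among genes that fell were 13 of 26 channel genes of the membrane potential, 8 of 34 of fatty acid uptake, storage and oxidation and 6 of 21 of the tricarboxylic acid cycle. Of 14731 genes tested, 943 rose (6.40%) and 700 fell (4.75%), 11.2% in all (edgeR quasi-likelihood test, Benjamini-Hochberg adjusted p under 0.05, as for every call below). The genes that rose had a median log2 fold change of 0.64 in size and 75 of them reached 2, while those that fell had a median size of 0.46 and 10 reached 2. Over all tested genes the median was -0.0017 and 49.6% were positive. Every TAC library lay above every sham library for 236 of the genes that rose, and below for 159 of those that fell. Over all tested genes this held for 242 (1.64%) and 163 (1.11%). Separation and the call rest on the same values, so neither is support for the other. The first principal component of log2 CPM, with 28.6% of the variance, placed TAC libraries between -47.9 and 7.51 and sham libraries between 16.6 and 38.9. Rad KO TAC 4 was the TAC library nearest to the sham libraries on it. The libraries are bulk tissue, in which fewer cells of a type and less RNA per cell cannot be told apart.

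With the Esr1 covariate 830 genes rose (5.63%) and 606 fell (4.11%), 9.75% in all. Without WT sham 2, WT sham 3 and Rad KO sham 2 the counts were 213 (1.37%) and 97 (0.624%) of 15541 tested genes, 1.99% in all, from 8 TAC and 3 sham libraries.

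Within each label alone fewer genes passed. The 7 Rad KO libraries gave 148 genes higher (1.05%) and 91 lower (0.644%) after TAC, 1.69% of 14122 tested, and the 7 WT libraries 287 (2.00%) and 155 (1.08%), 3.09% of 14323. Over the 13953 genes with a standard error in all 3 fits, the median standard error of the log2 fold change was 0.114 in the pooled fit, 0.158 in Rad KO and 0.155 in WT. The pooled fit shares its libraries with both others, so their values are set side by side and not compared as independent. The Rad KO and WT fits share none, and 75 genes passed in both, which is 31.4% of the Rad KO calls and 17.0% of the WT calls. All 75 had the same direction in both, 66 higher and 9 lower.

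**Figure D1:**
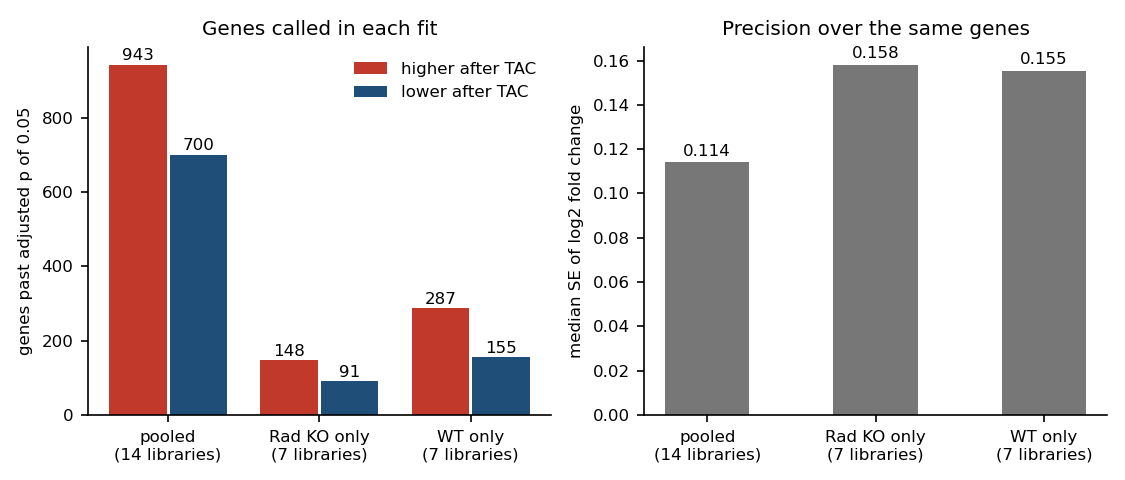
Number of genes called in the pooled, Rad KO and WT fits (left; red, higher after TAC; blue, lower) and median standard error of the log2 fold change over the 13953 genes fitted in all 3 (right). The pooled fit has 943 and 700 calls and the smallest median standard error, 0.114.

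The largest rises without overlap between TAC and sham libraries included a transcription factor, a transcription cofactor and a secretory pathway gene beside the known load genes. Lman1l, a relative of a secretory cargo receptor, had 1.10, 3.75 and 5.61 CPM in TAC, against 0.0627, 0.214 and 0.393 CPM in sham, a log2 fold change of 3.94 (SE 0.47) (adjusted p = 0.000256). Tbx15, a T-box transcription factor, had 1.78, 4.34 and 14.9 CPM in TAC, against 0.251, 0.388 and 0.816 CPM in sham (3.47 (SE 0.53)). Vgll2, a cofactor of TEAD proteins, had 2.68, 5.90 and 21.9 CPM in TAC, against 0.524, 0.717 and 1.08 CPM in sham (3.35 (SE 0.50)). For all 3 the highest sham library lay below the lowest TAC library, and Rad KO TAC 2 was the highest library for Tbx15 and Vgll2. Nlrc3, of the NLR family of regulators of immune signalling, had 5.41, 15.6 and 35.2 CPM in TAC, against 0.964, 1.91 and 2.27 CPM in sham (3.32 (SE 0.41)). Cilp (ENSMUSG00000042254, on chromosome 9 from 65265180 to 65280605, plus strand), a secreted matrix protein of cartilage and fibroblasts, had 42.5, 129.5 and 216 CPM in TAC, against 7.16, 10.01 and 31.3 CPM in sham (3.28 (SE 0.40), adjusted p = 0.000279). Both rose without overlap, and the lowest TAC library for each was Rad KO TAC 4. Gene coordinates are those of the deposited tables, for which the submitters' processing notes name mm10.

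Among protein-coding genes with a mean count of at least 50, the largest falls without overlap were smaller than the largest rises. Kcna2, a potassium channel subunit, had 0.587, 1.88 and 2.60 CPM in TAC, against 3.80, 5.76 and 9.20 CPM in sham, a log2 fold change of -1.70 (SE 0.26) (adjusted p = 0.000916). Lgals4, a galectin, had 2.83, 4.62 and 5.89 CPM in TAC, against 6.51, 12.5 and 16.8 CPM in sham (-1.41 (SE 0.17), adjusted p = 0.000256), with -1.53 (SE 0.19) in Rad KO and -1.26 (SE 0.26) in WT. Clcn1, the chloride channel of skeletal muscle, had 1.11, 2.85 and 4.33 CPM in TAC, against 4.48, 6.40 and 7.83 CPM in sham (-1.11 (SE 0.20)). The groups did not overlap for any of the 3. Col6a6, a collagen VI chain, fell by 1.52, the SH3-domain-binding kinase gene Sbk2 by 1.17, the kelch family gene Klhl33 by 1.10 and neprilysin, Mme, by 1.03. The monocarboxylate transporter Slc16a8, the grainyhead-like transcription factor Grhl2, the vesicular amino acid transporter Slc6a17 and autotaxin, Enpp2, had -1.03, -1.02, -0.98 and -0.97.

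**Figure D2:**
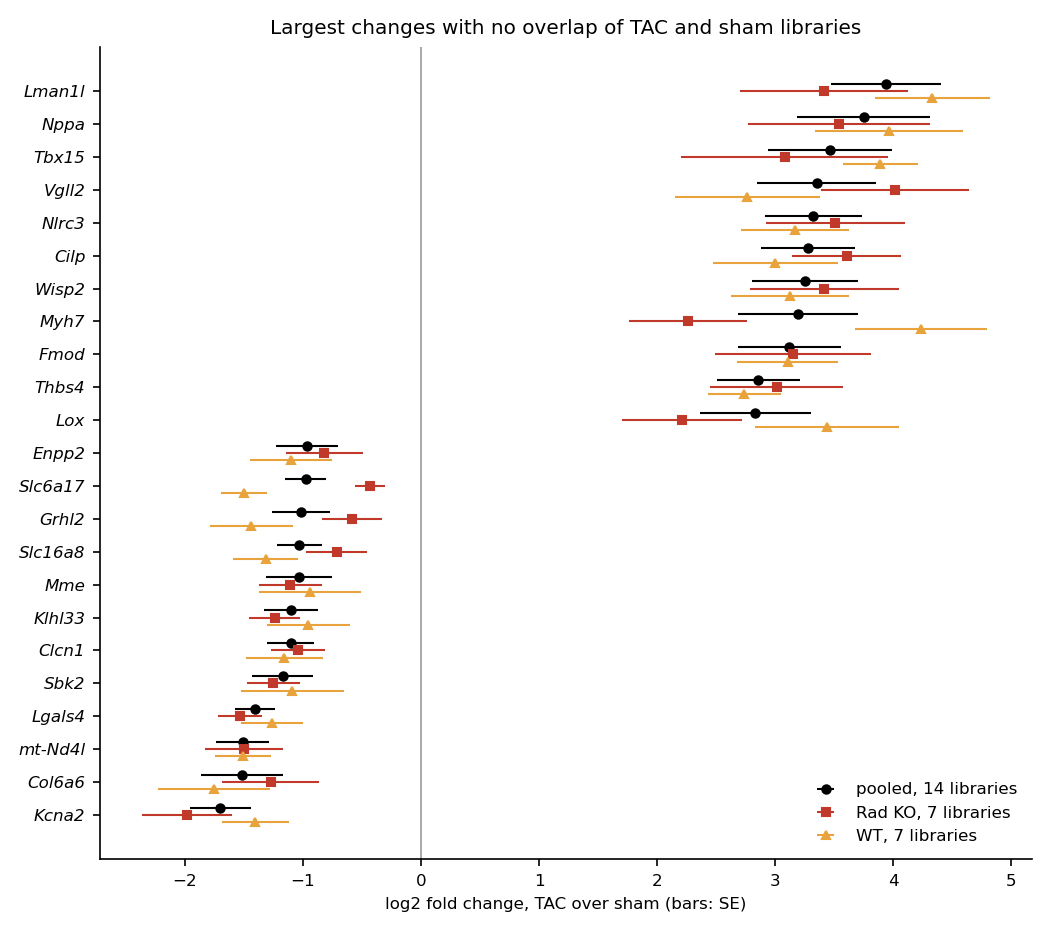
Log2 fold change of TAC over sham with its standard error for the protein-coding genes with the largest changes among those whose TAC and sham libraries did not overlap, in the pooled fit (black circles), Rad KO libraries (red squares) and WT libraries (orange triangles). Only genes with a mean count of at least 50 were considered. Pooled values of the genes shown run from -1.70 for Kcna2 to 3.94 for Lman1l. The value of each gene has the same sign in all 3 fits, which the choice of genes without overlap fixes in advance.

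A number of genes passed with both labels pooled and in neither label alone. Those named here had log2 fold changes of the same sign in both, which their choice by the smallest pooled p favours. Mef2a, a transcription factor of muscle genes, had 152, 166 and 181 CPM in TAC, against 199, 220.4 and 240.3 CPM in sham, so that all TAC libraries lay below all sham libraries. Its log2 fold change was -0.40 (SE 0.06) with adjusted p = 0.00113, beside -0.41 (SE 0.09) in Rad KO and -0.39 (SE 0.10) in WT, which had adjusted p = 0.0624 and 0.073 in those fits. Tgfbr3, betaglycan, a co-receptor for TGF-beta, had 31.4, 49.6 and 59.9 CPM in TAC, against 61.3, 67.4 and 92.2 CPM in sham (-0.54 (SE 0.10)), and its ligand Tgfb3 had 24.2, 33.8 and 44.7 CPM in TAC, against 15.7, 19.4 and 25.0 CPM in sham (0.76 (SE 0.14)). The first fell without overlap and the second rose with overlap. Dbh, which makes noradrenaline and marks sympathetic nerve endings, had 1.98, 2.29 and 3.70 CPM in TAC, against 2.84, 5.62 and 6.86 CPM in sham (-1.09 (SE 0.19)). Other genes of this kind that rose were the sialyltransferase St6galnac4 (0.43), the PDGF receptor-like gene Pdgfrl (1.40), Impact, a regulator of translation (0.41), the galactosyltransferase B3galt2 (0.83), the basement membrane collagen Col4a5 (0.48), the collagen uptake receptor Mrc2 (0.60) and the interferon gamma receptor Ifngr1 (0.35). Those that fell were the FERM domain gene Epb41l4b (-1.06), the reductase Zadh2 (-0.38), the tubulin deglutamylase Agtpbp1 (-0.37), A530016L24Rik (-0.76) and the kinase Wnk4, a regulator of ion transport (-0.63). Without the 3 sham libraries Impact, B3galt2, Col4a5, Ifngr1, Agtpbp1, A530016L24Rik and Dbh did not pass, with adjusted p = 0.0505 to 0.0942.

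The gene lists were chosen with earlier results of these data known, so their shares are descriptive and no independent support. Load-responsive genes of the cardiac muscle cell mostly rose. Of 20 on the list 19 were tested, 16 rose and none fell, and the median log2 fold change was 1.53, against 6.40% of all tested genes higher and a median of -0.0017. With the Esr1 covariate 16 rose, and without the 3 sham libraries 9. Nppb (ENSMUSG00000029019, on chromosome 4 from 147985788 to 147987205, plus strand), B-type natriuretic peptide, had 237, 383 and 1130.3 CPM in TAC, against 47.7, 81.8 and 119 CPM in sham, a log2 fold change of 2.52 (SE 0.34) (adjusted p = 0.000523). Nppa (ENSMUSG00000041616, on chromosome 4 from 148000722 to 148002079, plus strand), atrial natriuretic peptide, had 148, 319 and 1714 CPM in TAC, against 25.7, 43.6 and 70.7 CPM in sham (3.75 (SE 0.56), adjusted p = 0.000916). The groups did not overlap for either gene, whose promoters are shown above and which lie near each other on chromosome 4. Ankrd1 (ENSMUSG00000024803, on chromosome 19 from 36111965 to 36119844, minus strand) had 1696, 3584 and 7169.8 CPM in TAC, against 594, 888 and 1238 CPM in sham (2.17 (SE 0.29), adjusted p = 0.0005). Acta1 had 1272, 2562 and 6283 CPM in TAC, against 180.4, 1075 and 1678 CPM in sham (1.53 (SE 0.41), adjusted p = 0.0227), with the lowest TAC library inside the sham range. Myh7, the slow beta-myosin heavy chain, had 788, 1719 and 6897 CPM in TAC, against 142, 169 and 491 CPM in sham (3.19 (SE 0.51), adjusted p = 0.00121). Myh6, the fast alpha-myosin heavy chain of the adult mouse ventricle, had 13516, 20392 and 32472 CPM in TAC, against 22276, 26380 and 29083 CPM in sham and did not pass (-0.28 (SE 0.15), adjusted p = 0.25). The 2 myosin genes share near-identical stretches, and how reads between them were assigned was not given in the sources used here. Myh7 did not pass without the 3 sham libraries (2.57, adjusted p = 0.0623), and nor did Acta1 (1.57, 0.208).

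Genes of the actin-anchoring machinery were in the same list. Tnfrsf12a, a receptor for the cytokine TWEAK, had 59.2, 91.0 and 175 CPM in TAC, against 10.7, 25.4 and 39.4 CPM in sham (1.90 (SE 0.25)). Ankrd23, a titin-binding relative of Ankrd1, had 21.6, 36.0 and 62.0 CPM in TAC, against 7.52, 10.3 and 14.8 CPM in sham (1.79 (SE 0.20)), and Mybpc2, the fast skeletal myosin-binding protein C, had 17.3, 38.1 and 55.5 CPM in TAC, against 6.38, 9.97 and 15.5 CPM in sham (1.89 (SE 0.21)). None of these 3 overlapped between TAC and sham. Xirp2, which binds actin at the intercalated disc, had 720.1 to 2305 CPM in TAC, against 412 to 677 CPM in sham (1.53 (SE 0.22)), Synpo2l, a Z-disc protein, 219 to 887 CPM in TAC, against 128 to 178 CPM in sham (1.49 (SE 0.23)), and Nrap, which anchors actin at the disc, 881 to 1566 CPM in TAC, against 612 to 784 CPM in sham (0.83 (SE 0.12)). The circulating stress cytokine Gdf15 had 2.44 (SE 0.52), the LIM protein Fhl1 1.21 (SE 0.24), the actin regulator Enah 0.91 (SE 0.15) and the ubiquitin hydrolase Uchl1 1.64 (SE 0.34), all past the threshold. Cmya5 (-0.07), Crip1 (0.29) and Xirp1 (0.45, adjusted p = 0.0725) did not pass.

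The contractile filaments moved less. Of 21 thin and thick filament and Z-disc genes 8 rose and 1 fell, with a median of 0.21 (8 and 2 with the Esr1 covariate, 1 and 0 without the 3 sham libraries). Myot, the Z-disc protein myotilin, had 53.7, 102 and 113 CPM in TAC, against 14.8, 28.3 and 34.3 CPM in sham without overlap (1.92 (SE 0.19), adjusted p = 0.000229). Actc1, the cardiac actin, had 6038, 10148 and 12951 CPM in TAC, against 4258, 5445 and 7273 CPM in sham (0.77 (SE 0.16)), Csrp3, a Z-disc LIM protein, 1056, 1309 and 1644 CPM in TAC, against 772, 944 and 1075 CPM in sham (0.51 (SE 0.09)), and Actn2, which crosslinks actin at the Z-disc, 1935, 2376 and 2905 CPM in TAC, against 1619, 1834 and 2006 CPM in sham (0.40 (SE 0.09)). The ranges of these last 3 overlapped between TAC and sham. Nebl, the Z-disc protein nebulette, fell (-0.33 (SE 0.08)). The ventricular light chain Myl2 had -0.03 (SE 0.10) and troponin T, Tnnt2, -0.04 (SE 0.10), neither past the threshold. Of 24 intercalated disc, costamere and integrin genes 6 rose and none fell (median 0.08; 6 and 1 with the Esr1 covariate, 3 and 0 without the 3 sham libraries), among them the integrin chains Itgb5, with 136, 188 and 253 CPM in TAC, against 107, 112 and 123 CPM in sham (0.72 (SE 0.11)), and Itga5 (0.54 (SE 0.10)), the integrin-like Itgbl1 (1.94 (SE 0.22)) and talin, Tln1 (0.27 (SE 0.06)). Of 19 tubulin and microtubule genes 3 rose and 1 fell (median 0.22). The tubulins Tubb2a (0.72) and Tuba1c (0.71) and Svbp, a partner of tubulin carboxypeptidases (0.30), rose and Tuba4a fell (-0.43). Under the Esr1 covariate Tuba1c, Tuba4a and Svbp had adjusted p = 0.0605, 0.0525 and 0.0621, and none of the 19 passed without the 3 sham libraries.

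**Figure D3:**
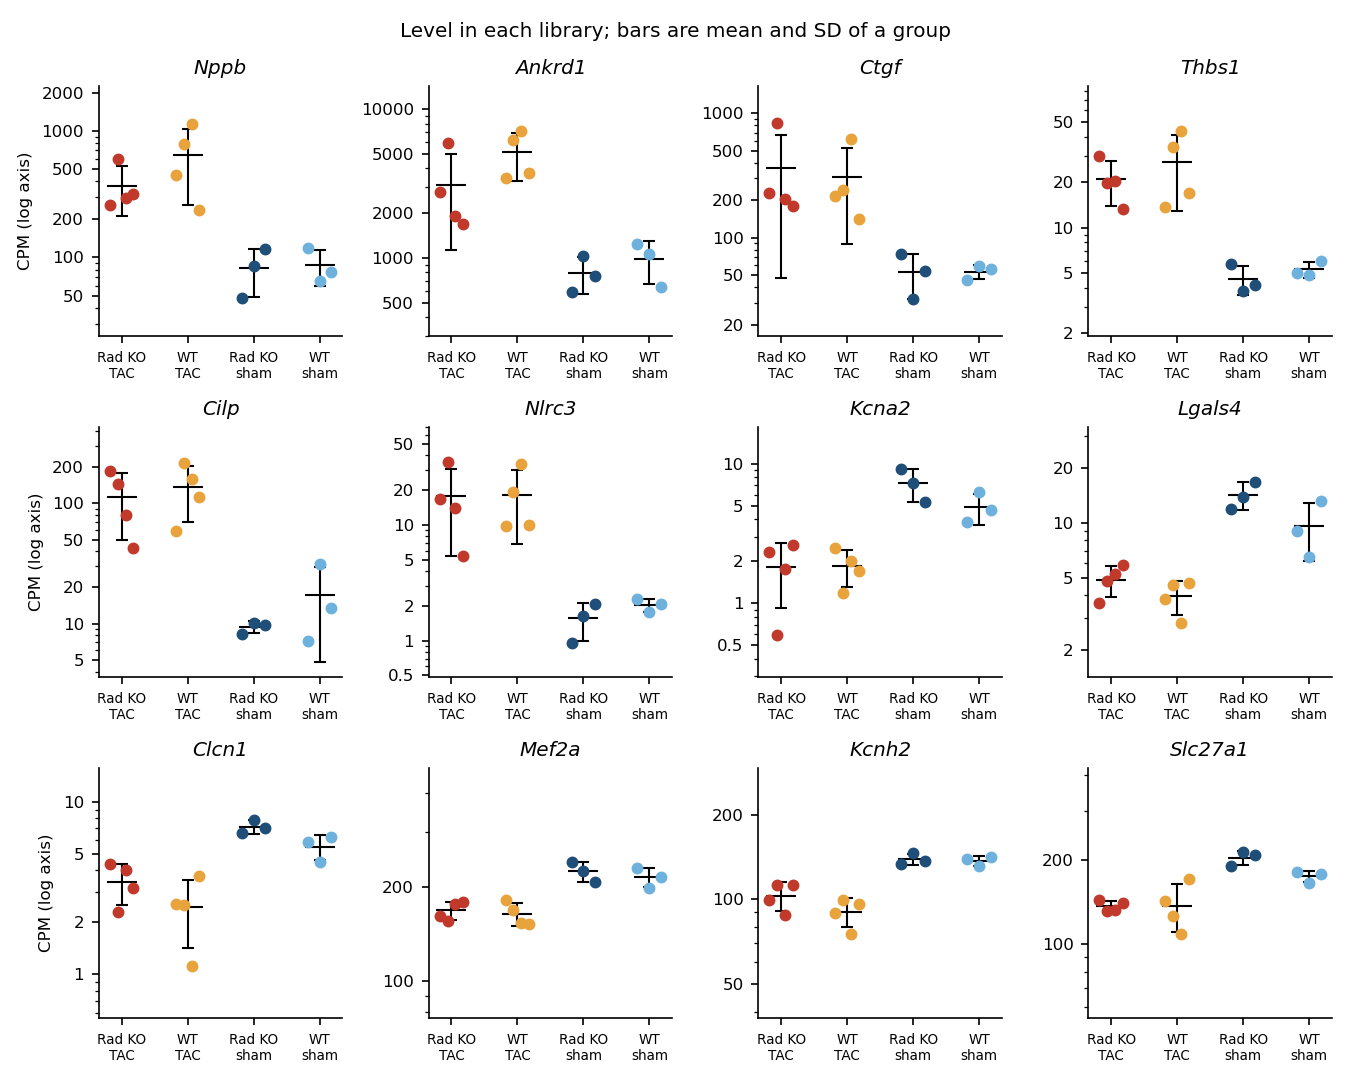
Level of 12 genes in each library in CPM on a log axis, by group (Rad KO TAC, WT TAC, Rad KO sham, WT sham). Horizontal bars with whiskers are the mean and SD of a group. Nppb, Ankrd1, Ctgf, Thbs1, Cilp and Nlrc3 are higher in all 8 TAC libraries than in any sham library, and Kcna2, Lgals4, Clcn1, Mef2a and Kcnh2 are lower in all 8, while for Slc27a1 a WT TAC library at 171 CPM lies inside the sham range.

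Matrix genes made up the broadest group that rose. Of 34 glycoproteins, proteoglycans and elastic fibre genes 25 rose and 1 fell, with a median of 0.78 on the log2 scale (27 and 1 with the Esr1 covariate, 14 and 0 without the 3 sham libraries). Comp, cartilage oligomeric matrix protein, had 9.11, 90.9 and 142 CPM in TAC, against 2.23, 3.15 and 16.0 CPM in sham (4.09 (SE 0.63), adjusted p = 0.000936), with Rad KO TAC 4 below WT sham 2. Thbs1, a thrombospondin that activates latent TGF-beta, had 13.4, 20.1 and 43.4 CPM in TAC, against 3.82, 4.93 and 6.02 CPM in sham (2.28 (SE 0.26), adjusted p = 0.000229), and Thbs4 14.9, 47.5 and 79.7 CPM in TAC, against 3.49, 5.72 and 10.4 CPM in sham (2.86 (SE 0.35)). Neither thrombospondin overlapped between the groups. Postn, periostin, had 62.7, 226 and 489 CPM in TAC, against 32.3, 35.8 and 86.1 CPM in sham (2.50 (SE 0.36)), and Eln, elastin, 31.9, 75.2 and 135 CPM in TAC, against 19.8, 21.4 and 26.0 CPM in sham (1.70 (SE 0.21)). Fibromodulin, Fmod, which guides collagen fibril assembly, had 7.33, 33.2 and 46.4 CPM in TAC, against 2.00, 2.75 and 5.89 CPM in sham (3.12 (SE 0.43)). Elastin and fibromodulin did not overlap, while the lowest TAC library for Postn, Rad KO TAC 4, lay inside the sham range. Ltbp2, a latent TGF-beta binding protein, rose (3.83 (SE 0.52)) and Ltbp1, of the same family, fell (-0.53 (SE 0.11)). Fibronectin, Fn1 (0.74 (SE 0.17)), osteopontin, Spp1 (2.11 (SE 0.52)), biglycan, Bgn (1.37 (SE 0.22)), and Mfap4, a microfibril protein (2.07 (SE 0.28)), rose. Decorin, Dcn (0.36), lumican, Lum (0.17), osteoglycin, Ogn (-0.07), and Tnc, tenascin C (1.02, adjusted p = 0.055), did not pass.

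Among 18 tested collagen genes of the list 12 rose and none fell, with a median of 0.62 (13 with the Esr1 covariate, 6 without the 3 sham libraries). Col6a6, described above, is not on the list and fell. Col8a1, a short-chain collagen, had 47.7, 74.8 and 152 CPM in TAC, against 23.9, 27.3 and 29.6 CPM in sham without overlap (1.59 (SE 0.20), adjusted p = 0.000279), and Col12a1, a fibril-associated collagen, 2.06, 10.6 and 22.9 CPM in TAC, against 1.03, 1.19 and 2.32 CPM in sham (3.07 (SE 0.39)). Col1a1, the main fibrillar collagen chain, had 168, 236 and 359 CPM in TAC, against 105, 116 and 168 CPM in sham (0.91 (SE 0.18), adjusted p = 0.00421), and Col3a1 272, 434 and 797 CPM in TAC, against 196, 271 and 359 CPM in sham (0.75 (SE 0.21), adjusted p = 0.0311). The TAC and sham ranges of both overlapped. Neither passed in a single label: Col1a1 had 1.02 (SE 0.23) in Rad KO and 0.81 (SE 0.22) in WT, and Col3a1 0.95 (SE 0.27) in Rad KO and 0.57 (SE 0.27) in WT. Col8a2 (3.46) and Col5a2 (1.15) also rose. Per kilobase of gene length Col1a1 averaged 37.1 CPM in TAC and 19.9 CPM in sham, and Postn 29.5 CPM in TAC and 5.26 CPM in sham.

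Of 25 genes that process collagen or turn matrix over 15 rose and none fell (median 0.58, with 13 and 6 risers in the 2 checks). Lox, lysyl oxidase, which crosslinks collagen and elastin, had 3.49, 16.0 and 41.2 CPM in TAC, against 1.53, 2.41 and 3.46 CPM in sham without overlap (2.83 (SE 0.47)), and did not pass without the 3 sham libraries (2.76, adjusted p = 0.056). Adamtsl2, a microfibril-associated protein that limits TGF-beta, had 33.2, 51.9 and 69.0 CPM in TAC, against 10.1, 14.7 and 19.8 CPM in sham (log2 fold change 1.80 (SE 0.19)). P4ha1, a prolyl hydroxylase of collagen, had 70.5, 90.5 and 105 CPM in TAC, against 49.7, 57.6 and 60.4 CPM in sham (0.71 (SE 0.09)), also without overlap. All 4 further members of the lysyl oxidase family rose, with log2 fold changes of 1.07, 0.73, 1.38 and 0.75 for Loxl1 to Loxl4. The inhibitor Timp1 rose (2.13 (SE 0.42)), and Timp2 (0.15), Timp3 (0.04) and Timp4 (-0.33) did not pass.

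Several ligands of the TGF-beta superfamily and CCN proteins rose, and the receptors Tgfbr1 and Tgfbr2 and the inhibitory SMADs did not pass. In this list of 24 tested genes 11 rose and none fell (median 0.32, with 9 and 8 in the 2 checks). Ctgf, the CCN protein connective tissue growth factor, had 142, 222 and 828 CPM in TAC, against 32.2, 54.8 and 74.3 CPM in sham (2.64 (SE 0.40), adjusted p = 0.000916). Wisp2, also a CCN protein, had 7.67, 38.9 and 65.7 CPM in TAC, against 1.48, 3.51 and 6.91 CPM in sham (3.25 (SE 0.45)). Inhba, an activin subunit, had 3.04, 4.61 and 6.23 CPM in TAC, against 1.12, 1.93 and 2.55 CPM in sham (1.33 (SE 0.16)). Groups did not overlap for these 3. Tgfb2 rose (1.44 (SE 0.29)), as did the follistatin-like genes Fstl1 (1.19 (SE 0.16)) and Fstl3 (1.48 (SE 0.31)), whereas Tgfb1 had 0.16 (SE 0.09) (adjusted p = 0.281), and the receptors Tgfbr1 0.16 and Tgfbr2 0.31. Of 15 Wnt pathway genes tested 5 rose and 1 fell, with 6 and 1 under the covariate and 4 and 1 without the 3 sham libraries. The secreted antagonist Sfrp2 had 4.38, 23.4 and 33.8 CPM in TAC, against 1.84, 2.60 and 8.38 CPM in sham (2.71 (SE 0.49)), and Dkk3, of the Dickkopf family, 10.2, 23.5 and 32.97 CPM in TAC, against 3.78, 4.57 and 11.8 CPM in sham (2.01 (SE 0.30)). Sfrp5, a further secreted antagonist, stood at low counts and fell without overlap (-2.30 (SE 0.38)). It had 0, 0.157 and 0.411 CPM in TAC, against 0.564, 0.881 and 1.56 CPM in sham. Its mean count was below the 50 required of the largest falls named above.

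Hormone and growth factor genes went both ways. Of 25 genes 7 rose and 5 fell, with a median of -0.02. Edn3, an endothelin, had 17.2, 28.9 and 40.0 CPM in TAC, against 2.67, 8.75 and 13.3 CPM in sham (1.79 (SE 0.23), adjusted p = 0.000333), and Ace, which makes angiotensin II, 80.6, 110.4 and 151 CPM in TAC, against 52.4, 60.2 and 72.5 CPM in sham (0.91 (SE 0.14)). Both rose without overlap. Hbegf, an EGF receptor ligand (0.80 (SE 0.14)), Igf1 (0.69 (SE 0.17)) and its binding proteins Igfbp6 (1.00 (SE 0.17)) and Igfbp7 (0.82 (SE 0.15)) rose as well. The angiotensin receptor Agtr1a (-0.43 (SE 0.10)), the neuregulin receptor Erbb4 (-0.61 (SE 0.15)), Fgf2 (-0.54 (SE 0.13)) and the cardiac fibroblast growth factor Fgf16 (-0.67 (SE 0.13)) fell. With the Esr1 covariate 7 rose and 5 fell, and without the 3 sham libraries 4 rose and none fell.

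Immediate early genes, which encode transcription factors switched on within minutes of a stimulus, had calls in the higher direction. Of 19 genes 10 rose and none fell (median 0.53, 10 with the Esr1 covariate). Nr4a3, an orphan nuclear receptor, had 4.08, 7.03 and 11.1 CPM in TAC, against 1.42, 2.45 and 3.34 CPM in sham (1.59 (SE 0.25)), and Jun 73.5, 92.4 and 110.1 CPM in TAC, against 53.8, 64.8 and 70.1 CPM in sham (0.53 (SE 0.10)). Both were without overlap. Myc (1.35), Atf3 (1.44) and Egr2 (1.88) rose, and Fos (0.60) and Egr1 (0.38) did not pass. Nr4a3 was the 1 member past the threshold without the 3 sham libraries. Among 18 tested genes of the calcineurin, NFAT, MEF2 and CaMKII pathways 1 rose and 1 fell, 11.1% of the list against 11.2% of all tested genes. The riser was Rcan1, a calcineurin inhibitor that NFAT induces, with 86.9, 164 and 409.6 CPM in TAC, against 54.5, 63.1 and 80.9 CPM in sham (1.45 (SE 0.27)), and the gene that fell was Mef2a. Rcan1 did not pass without the 3 sham libraries (1.36, adjusted p = 0.0628).

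Calls among channel genes of the resting and repolarising membrane were all in the lower direction. Of 26 potassium, sodium, pacemaker and gap junction channel genes 13 fell and none rose, with a median of -0.34, against 4.75% of tested genes lower. With the Esr1 covariate 11 fell and 1 rose, and without the 3 sham libraries 2 fell. Kcnh2, the rapid delayed rectifier channel, had 75.7, 98.1 and 113 CPM in TAC, against 131, 138 and 146 CPM in sham (-0.52 (SE 0.08), adjusted p = 0.000884). Every TAC library lay below every sham library. Kcnj2, the inward rectifier of the resting potential, had 31.7, 48.5 and 72.6 CPM in TAC, against 69.6, 79.5 and 96.7 CPM in sham (-0.71 (SE 0.12)), and Kcnip2, the accessory subunit of the transient outward channel, 117, 168 and 297 CPM in TAC, against 198, 285 and 327 CPM in sham (-0.62 (SE 0.17)). These ranges overlapped, and Kcnip2 had -0.19 (SE 0.20) in Rad KO and -1.03 (SE 0.17) in WT. The atrial-type channel subunits Kcnj3 (-0.86 (SE 0.21)) and Kcnj5 (-0.66 (SE 0.13)), the transient outward pore subunits Kcnd2 (-0.73 (SE 0.23)) and Kcnd3 (-0.40 (SE 0.10)) and the pacemaker channel Hcn4 (-0.79 (SE 0.21)) fell as well. The gap junction gene Gja1 (-0.09 (SE 0.09)) did not pass.

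Of 28 tested L-type channel, RGK and calcium cycling genes 1 rose and 2 fell, 10.7% of the list against 11.2% of all tested genes (median -0.08; 2 and 2 with the Esr1 covariate, 0 and 1 without the 3 sham libraries). Cacnb1, a beta subunit of calcium channels, had 10.8, 14.2 and 30.7 CPM in TAC, against 6.90, 8.33 and 9.43 CPM in sham (1.04 (SE 0.21)). Cacng6, a gamma subunit, had 0.111, 0.787 and 2.47 CPM in TAC, against 2.15, 4.73 and 5.10 CPM in sham (-2.32 (SE 0.44)), and the ryanodine receptor Ryr2 1123, 1230.3 and 1692 CPM in TAC, against 1195, 1718 and 2052 CPM in sham (-0.40 (SE 0.11), adjusted p = 0.0323). Cacnb1 did not overlap, and the other 2 did. Atp2a2, the sarcoplasmic reticulum calcium pump SERCA2, had 10115, 14159.7 and 15739 CPM in TAC, against 14057, 16184 and 17929.8 CPM in sham (-0.24 (SE 0.10), adjusted p = 0.123), its inhibitor phospholamban, Pln, -0.08 (SE 0.08), and the pore subunit Cacna1c -0.17 (SE 0.10). None of these 3 passed. Of 30 adrenergic, cyclic AMP and phosphodiesterase genes 3 rose and 6 fell, and 2 and 5 with the Esr1 covariate. The receptors Adra1b (-0.83 (SE 0.17)) and Adrb1 (-0.31 (SE 0.07)) and the main cardiac cyclases Adcy5 (-0.31 (SE 0.10)) and Adcy6 (-0.36 (SE 0.08)) fell, and the receptor kinase Grk5 rose (0.51 (SE 0.11)). None of the 30 passed without the 3 sham libraries.

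Lists of energy genes held calls in the lower direction for fatty acid and tricarboxylic acid cycle genes. Calls among glucose genes went in both directions, at a share near that of all tested genes. Of 34 genes of fatty acid uptake, storage and oxidation 8 fell and none rose, and 31 had a negative log2 fold change, with a median of -0.30. With the Esr1 covariate 19 fell, and without the 3 sham libraries 2. Slc27a1, a fatty acid transport protein, had 109, 136 and 171 CPM in TAC, against 166, 186 and 213 CPM in sham (-0.46 (SE 0.09), adjusted p = 0.00307), and Hadh, a dehydrogenase of beta-oxidation, 342, 444 and 538 CPM in TAC, against 543, 603 and 696 CPM in sham (-0.44 (SE 0.10), adjusted p = 0.00927). Hadh did not overlap between the groups and Slc27a1 did. Acadm, the medium-chain dehydrogenase, had 944 to 1344 CPM in TAC, against 1242 to 1512 CPM in sham (-0.30 (SE 0.08)). Cpt1b, the muscle form of the transferase that admits fatty acids to mitochondria, had 1.33, 2.39 and 4.07 CPM in TAC, against 3.04, 3.67 and 4.72 CPM in sham and did not pass (-0.62 (SE 0.20), adjusted p = 0.0569), and Cd36, the main uptake receptor, had -0.11 (SE 0.11). The median in Rad KO was -0.41 and in WT -0.13. Whether the list differs between the labels was not tested, and no single gene passed the test of that difference, described below.

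Of 21 tricarboxylic acid cycle genes 6 fell and 20 had a negative value, with a median of -0.15 (6 fell with the Esr1 covariate, none without the 3 sham libraries). Idh3a, a subunit of isocitrate dehydrogenase, had 461, 543 and 607 CPM in TAC, against 614, 650.3 and 709 CPM in sham without overlap (-0.29 (SE 0.06)), and citrate synthase, Cs, 974, 1092 and 1274 CPM in TAC, against 1192, 1352 and 1524 CPM in sham (-0.30 (SE 0.07)). Among 30 nuclear-encoded respiratory chain genes 29 were negative, also with a median of -0.15, and 1 passed, the muscle subunit Cox7a1 of cytochrome oxidase (-0.53 (SE 0.13)), which did not pass without the 3 sham libraries. That share, 3.33%, lies below the 4.75% of all genes that fell. Of 13 mitochondrially encoded genes 3 fell, 5 with the Esr1 covariate and 4 without the 3 sham libraries, led by mt-Nd4l, a complex I subunit, with 117, 149 and 287 CPM in TAC, against 334, 463 and 713 CPM in sham (-1.51 (SE 0.22)). The mt-Nd4l and mt-Atp6 (-0.69 (SE 0.13)) genes overlap a neighbouring mitochondrial gene, so their reads are uncertain, and the mitochondrial share of counts was itself lower in TAC, as given above. Of 25 genes of branched-chain amino acid, ketone body and creatine use 4 fell (5 with the Esr1 covariate, 1 without the 3 sham libraries), among them the phosphatase Ppm1k, which activates branched-chain oxidation, with 64.4, 84.1 and 107 CPM in TAC, against 114, 128 and 141 CPM in sham (-0.59 (SE 0.11)). Of 29 glucose genes 2 rose and 2 fell: the platelet-type phosphofructokinase Pfkp had 43.7, 72.1 and 111 CPM in TAC, against 35.2, 39.9 and 41.9 CPM in sham (0.97 (SE 0.17)), Pgam1 0.36 (SE 0.07), the phosphofructokinase regulator Pfkfb1 -1.46 (SE 0.29) and the heart lactate dehydrogenase Ldhb -0.31 (SE 0.08). These calls are 13.8% of the glucose list, against 11.2% of all tested genes. The glucose counts were 2 and 2 with the Esr1 covariate and 0 and 1 without the 3 sham libraries. Of 22 metabolic transcription factor and uncoupling protein genes 1 rose and 2 fell, 13.6% of the list against 11.2% of all tested genes. Ppargc1a, a coactivator of mitochondrial genes, had 72.2, 87.7 and 133 CPM in TAC, against 87.6, 112 and 171 CPM in sham and did not pass (-0.33 (SE 0.12), adjusted p = 0.103). Nmrk2, a nicotinamide riboside kinase, rose (2.11 (SE 0.38)), but did not pass without the 3 sham libraries (2.13, adjusted p = 0.0636). Those that fell were Thrb (-0.39) and Rxrg (-0.28).

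Of 27 antioxidant, unfolded protein and heat shock genes 6 rose and 1 fell, 25.9% of the list against 11.2% of all tested genes (6 and 1 with the Esr1 covariate, 4 and 0 without the 3 sham libraries). The small heat shock proteins Hspb7, with 2673, 3519 and 3838 CPM in TAC, against 1796, 2075 and 2482 CPM in sham (0.66 (SE 0.09)), and Hspb1, with 296, 343 and 433 CPM in TAC, against 193, 224 and 259 CPM in sham (0.65 (SE 0.11)), rose without overlap. Hspa1a (1.46 (SE 0.29)) and Hspa1b (1.22 (SE 0.25)) encode near-identical proteins and may share reads. Of 19 tested ATF4, serine and one-carbon genes 10.5% passed, near the share of all genes: Slc7a5, an amino acid transporter, rose (0.70 (SE 0.20)), and the folate enzyme Aldh1l2 fell (-1.67 (SE 0.26)). Without the 3 sham libraries 0 rose and 1 fell. Among 18 clock genes, of which 11.1% passed, Nr1d1 fell (-0.35 (SE 0.09)), and none passed without the 3 sham libraries. Of 21 cell cycle genes Ccnd2 (0.42 (SE 0.11)), Cdkn1a (0.73 (SE 0.20)) and Mcm2 (0.36 (SE 0.11)) rose, and Cenpf, a kinetochore protein, fell (-1.90 (SE 0.39)), 19.0% of the list, while the proliferation marker Mki67 had 0.07 (SE 0.22). The cell cycle counts were 3 and 1 with the Esr1 covariate and 0 and 1 without the 3 sham libraries. Slc7a5 and Mcm2 did not pass with the Esr1 covariate (adjusted p = 0.0599 and 0.0828).

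**Figure D4:**
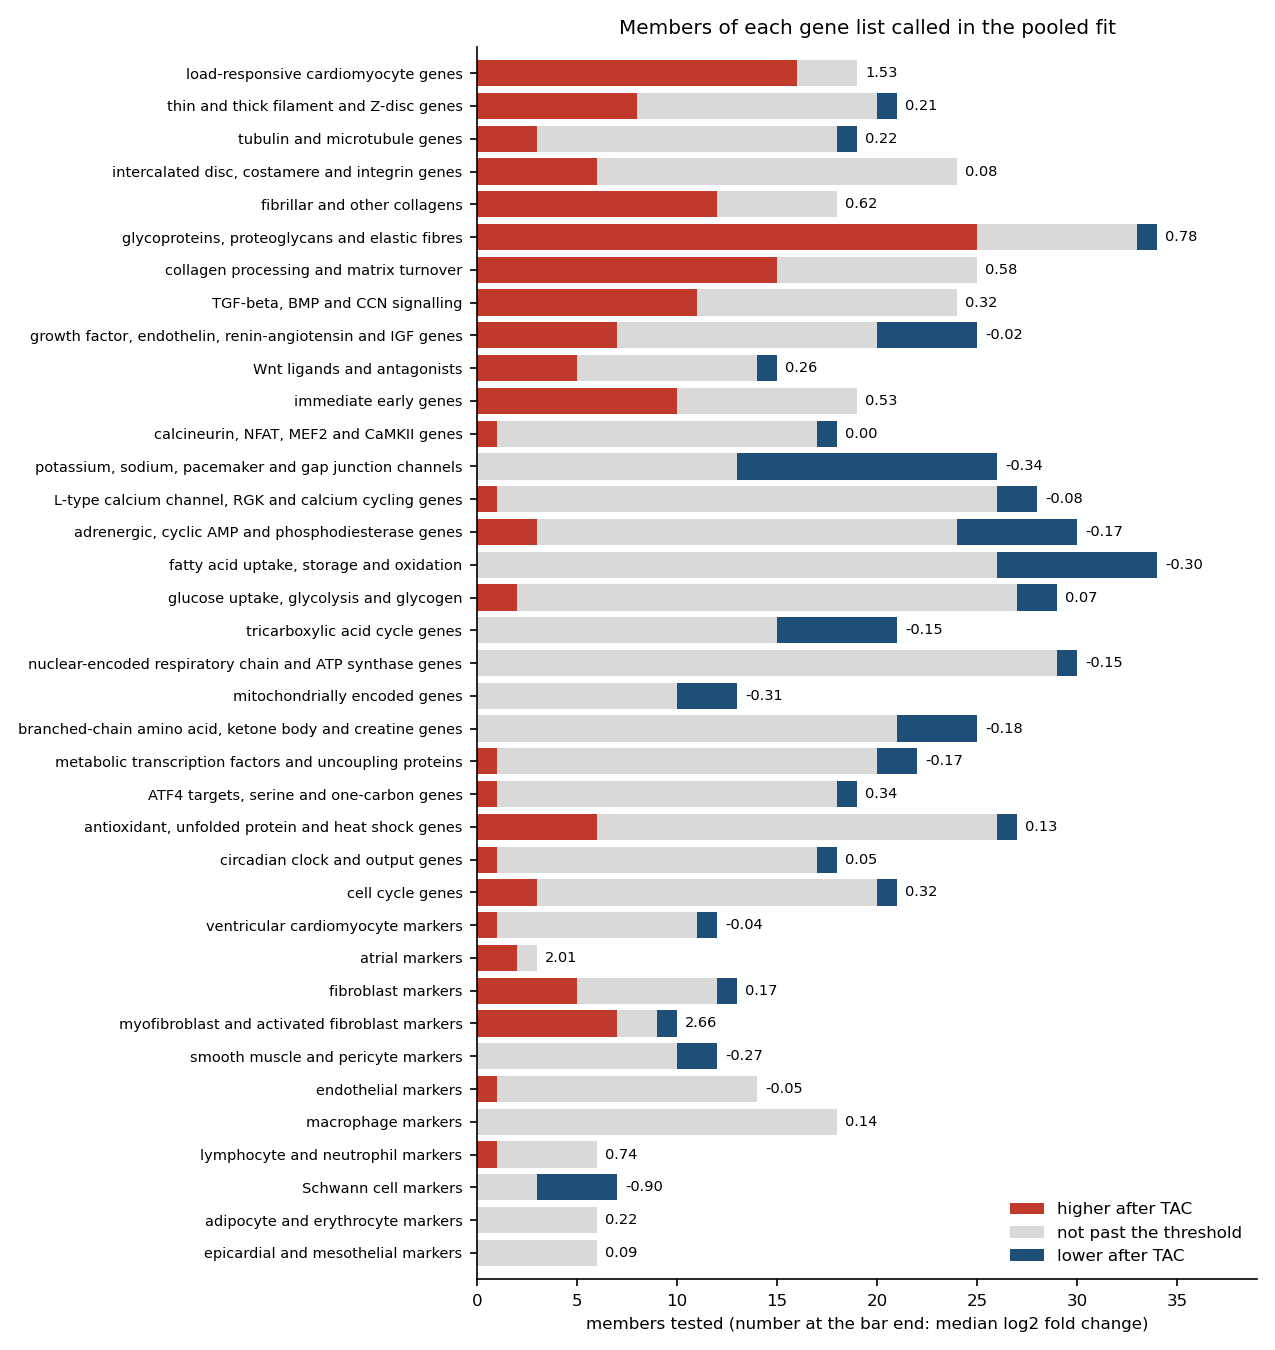
Members of each of 37 gene lists that were higher after TAC (red), lower (blue) or not past the threshold (grey) in the pooled fit, as a bar over the members tested. The number at the end of a bar is the median log2 fold change. Matrix, load-responsive and immediate early lists are mostly red, and channel and energy lists hold blue. Of the 11 marker lists at the end 8 are mostly grey. Mostly coloured are those of myofibroblasts (80.0% of 10 tested, 7 higher and 1 lower), atrial cells (66.7% of 3 tested) and Schwann cells (57.1% of 7 tested).

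Markers of cell types were read beside these groups. Calls took 16.7% of cardiac muscle, 16.7% of smooth muscle and pericyte and 16.7% of lymphocyte and neutrophil markers, against 11.2% of all tested genes. They took 46.2% of fibroblast, 57.1% of Schwann cell and 80.0% of myofibroblast markers. Ventricular cardiac muscle markers defined the tissue, with a summed level of 56139 to 74525 CPM in TAC and 57486 to 70462 CPM in sham, and of 12 markers 1 rose and 1 fell. The atrial markers Myl7, Sln and Bmp10 were all under 0.65 CPM in every library and untested. Of 3 atrial markers tested, the 2 that rose were Nppa and Dkk3. Myl4, the other one tested, had a negative log2 fold change and did not pass. Of 13 fibroblast markers 5 rose and 1 fell (3 and 0 without the 3 sham libraries), with a sum of 2602 to 5189 CPM in TAC and 2520 to 3468 CPM in sham. The identity markers Pdgfra (-0.06), Tcf21 (0.02) and Dpt (-0.10) did not pass, and Pi16, with 72.7, 113 and 199 CPM in TAC, against 38.8, 45.4 and 61.2 CPM in sham (1.45 (SE 0.21)), and Mfap5, with 29.0, 49.4 and 92.1 CPM in TAC, against 16.3, 19.9 and 22.2 CPM in sham (1.46 (SE 0.22)), rose without overlap. Of 10 myofibroblast and activated fibroblast markers 7 rose and 1 fell (5 and 0 without the 3 sham libraries). All 7 that rose are also members of the matrix or the TGF-beta, BMP and CCN lists above. The one that fell was Acta2, smooth muscle actin, with 72.6, 139 and 708 CPM in TAC, against 158, 642 and 1026 CPM in sham (-1.71 (SE 0.40), adjusted p = 0.0125). Its level overlapped widely between TAC and sham and did not pass without the 3 sham libraries (-1.23, adjusted p = 0.165). Fap (-0.45) and Tagln (0.40) did not pass.

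Among 12 smooth muscle and pericyte markers none rose and 2 fell (also 2 with the Esr1 covariate, none without the 3 sham libraries), Acta2 and Abcc9, a subunit of ATP-sensitive potassium channels (-0.59 (SE 0.16)), with a summed level of 923 to 2071 CPM in TAC and 1628 to 2451 CPM in sham. Of 14 endothelial markers 1 rose (7.14%, against 6.40% of all tested genes), Npr3, a natriuretic peptide clearance receptor (0.75 (SE 0.17)). Npr3 did not pass without the 3 sham libraries. The endothelial sums were 1251 to 1862 CPM in TAC and 1593 to 1927 CPM in sham. None of 18 macrophage markers passed (212 to 471 CPM in TAC, 306 to 435 CPM in sham), and Timd4, of resident macrophages, had the smallest p (-0.86 (SE 0.29), adjusted p = 0.0685). Of 7 tested Schwann cell markers 4 fell and all 7 were negative, with a median of -0.90 and sums of 5.35 to 22.3 CPM in TAC and 19.0 to 27.3 CPM in sham. Sox10, the transcription factor of Schwann cells, had 0.429, 0.962 and 2.94 CPM in TAC, against 1.75, 2.86 and 3.12 CPM in sham (-1.22 (SE 0.32)). Its TAC and sham ranges overlapped, and no Schwann marker passed without the 3 sham libraries. Of 6 tested lymphocyte and neutrophil markers the B cell gene Ms4a1 rose at under 1 CPM in every library (1.86 (SE 0.56), adjusted p = 0.0414), and did not pass with the Esr1 covariate (0.0637). No adipocyte, erythrocyte, epicardial or mesothelial marker passed, with adjusted p = 0.56 for Hba-a1 and 0.562 for Msln as the smallest of their lists. The part of these markers in the results above was not tested.

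Whether the response is shared was tested gene by gene as the TAC effect in Rad KO minus that in WT. No gene of 14731 passed in edgeR (0.00%), the smallest adjusted p was 0.503 and 753 genes had an unadjusted p under 0.05, while DESeq2 called 7 higher and 1 lower. Among the 1643 genes called in the pooled fit 102 had an unadjusted p under 0.05, which is 6.21%, against 5.11% of all tested genes. A difference that misses the threshold does not show equal responses, and the standard errors of the difference were wide: for Nppb -0.74 (SE 0.61), for Myh7 -1.97 (SE 0.76) and for Postn 0.04 (SE 0.67). Of the genes that passed in the pooled fit, those with the smallest p for the difference were Slc6a17, Ano10, Tbc1d10c and Cenpf. Slc6a17 had 11.1, 10.6, 10.8 and 12.6 CPM in Rad KO TAC 1 to 4; 9.05, 4.71, 5.56 and 6.59 CPM in WT TAC 1 to 4; 13.9, 15.5 and 16.2 CPM in Rad KO sham 1 to 3; 18.5, 19.4 and 17.1 CPM in WT sham 1 to 3. Its TAC libraries lay below its sham libraries in both labels, with -0.43 (SE 0.12) in Rad KO and -1.50 (SE 0.20) in WT, a difference of 1.07 (SE 0.24, adjusted p = 0.539). Ano10, of the anoctamin family, had -0.26 (SE 0.23) in Rad KO and -1.99 (SE 0.29) in WT, a difference of 1.73 (SE 0.42). Tbc1d10c, which inhibits calcineurin, had -0.22 (SE 0.32) in Rad KO and -2.38 (SE 0.35) in WT, and Cenpf -0.83 (SE 0.41) in Rad KO and -2.94 (SE 0.26) in WT. Cenpf stood at 14.6 CPM in Rad KO sham 2 and 40.3 CPM in WT sham 1, the sham libraries with low Esr1, and at 57.0 CPM in Rad KO sham 1, 28.8 CPM in Rad KO sham 3 and 61.9 and 60.7 CPM in WT sham 2 and 3. For Ano10, Tbc1d10c and Cenpf the pooled value lies between unequal estimates. Pooled values were -1.15, -1.32 and -1.90 in that order, and -0.81, -1.03 and -1.50 with the Esr1 level as covariate. Whether Esr1 level accounts for the unequal estimates was not tested.

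**Figure D5:**
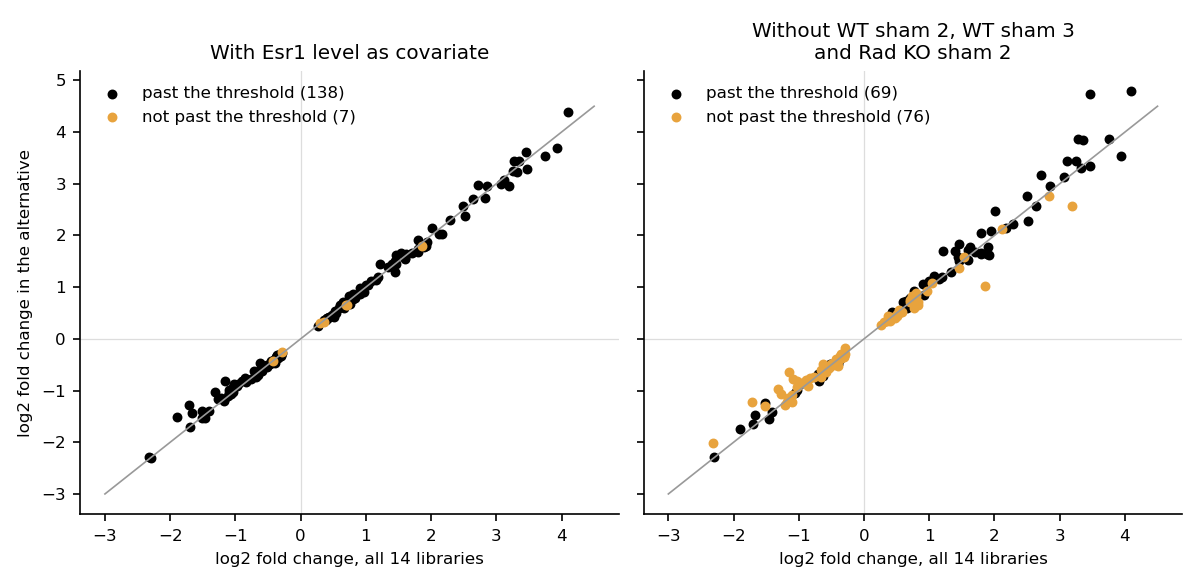
Log2 fold change of 145 named genes in the pooled fit (horizontal axis) against the same gene with the Esr1 level as covariate (left) or without WT sham 2, WT sham 3 and Rad KO sham 2 (right). Black points passed the threshold in the alternative and orange points did not, and the line marks equal values. With the covariate 138 passed and 7 did not, and without the 3 libraries 69 passed and 76 did not.

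Of 146 named genes called in the pooled fit, those that did not pass with the Esr1 covariate were Tuba1c, Tuba4a, Svbp, Rxrg, Slc7a5, Mcm2 and Ms4a1. Rxrg, a retinoid receptor, had -0.28 (SE 0.09) with all libraries and -0.17 without the 3 sham libraries, and Ano10 had -1.15 (SE 0.30) and -0.64. Without the 3 sham libraries 70 of the 146 passed. The genes that passed in all 3 settings included Nppa, Nppb, Ankrd1, Myot, Thbs1, Thbs4, Cilp, Comp, Postn, Eln, Ctgf, Edn3, Kcnh2, Kcna2, Lgals4 and Mef2a.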

How the data were processed

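PolyA-enriched RNA of mouse ventricle was sequenced in 14 libraries. The authors deposited, per the file headers, 1 table of read counts by gene for each genotype label, with 23925 genes in the Rad KO table, 24279 in the WT table and 22136 in both. The highest total count of a gene found in 1 table was 24, and genes in both tables were used. The submitters' processing notes name HISAT2, DESeq2, edgeR and mm10. Tool versions and roles, the read counter, its strand setting and the annotation were not given in the sources used here. Genes that overlap others are therefore uncertain. Coordinates are those of the deposited tables, and gene lengths, per the file headers, were used for levels per kilobase. Columns of samples that matched no label numbered 0.

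Counts were fitted by the quasi-likelihood F-test of edgeR 4.0.16 (R 4.3.3) after TMM scaling and filterByExpr (at least 10 counts, total at least 15) on genotype label plus operation, with Benjamini-Hochberg adjustment over all tested genes and a threshold of 0.05. The fits within each label used its 7 libraries, and the difference of effects a model of 4 groups. A standard error is the log2 fold change over the square root of F. Scripts were tested on simulated counts. The alternatives tried were DESeq2 1.42.0, DESeq2 size factors in edgeR, voom of limma 3.58.1, no filter, a replicate block, the mean of 2 within-label effects, no genotype term, the Esr1 level as covariate, stricter thresholds, and leaving out libraries. Replicate numbers are a label only: correlations of same-numbered libraries, after removing group means, were -0.142 to 0.142.

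Named genes were up to 12 per direction with the largest change, protein-coding, with a mean count of at least 50 and TAC and sham libraries that did not overlap; up to 8 per direction with the smallest p among those that passed in neither label alone; up to 4 per list; the 4 called genes with the smallest p for the difference; and Rrad, Esr1 and 14 fixed genes. Other list members are named for their role. The comparison, the lists and this rule were chosen with earlier results of these data known. Some genes that fall under it are not reported here, and promoters on chromosome 18 were not used. Promoters are from RefSeq (GRCm38.p6), and plots used matplotlib 3.10.9 (Python 3.11.15).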

Additional observations from a re-analysis of the deposited data

Results flagged for a closer look

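In 316 groups of 4 TAC libraries read for the named genes, 21 had a single library set apart from the other 3 by more than Dixon's 95% critical value, which is 6.65%; chance flags about 1 in 20 groups. Rad KO TAC 2 held 7 of these. In it Nppa stood at 1349 CPM (148 to 262 CPM in the other 3), Nppb at 605 CPM, Ctgf at 828 CPM, Tbx15 at 14.9 CPM, Hbegf at 45.5 CPM and Cacnb1 at 30.7 CPM, all above the other Rad KO TAC libraries, and Enpp2 at 2.48 CPM, below them (8.10 to 8.56 CPM).

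In WT TAC 3, Vgll2 stood high at 13.6 CPM (2.68 to 4.08 CPM in the other 3) and Ankrd23 high at 62.0 CPM, while Sbk2 at 0.556 CPM, Tgfbr3 at 31.4 CPM and Kcnj5 at 46.2 CPM stood low. Rad KO TAC 4, the TAC library nearest to sham on the first principal component, had high values of 3 genes that fell after TAC: Klhl33 at 30.7 CPM, Mccc2 at 57.0 CPM and Bckdhb at 57.7 CPM. The remaining flags were Cdkn1a at 49.7 CPM in Rad KO TAC 1, Ms4a1 at 0.790 CPM in Rad KO TAC 3, Dbh at 2.73 CPM and Myot at 112.6 CPM in WT TAC 2, and Ryr2 at 1692 CPM and mt-Nd2 at 16926 CPM in WT TAC 1. Each of these 6 was the highest of its group.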

How the results depend on the processing

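The pooled counts, 943 genes higher and 700 lower, were 943 and 696 with DESeq2 size factors, 1228 and 973 with DESeq2, 861 and 774 with voom, 888 and 650 without a filter on low counts, 937 and 700 as the mean of the within-label effects, 892 and 634 without the genotype term and 830 and 606 with the Esr1 covariate. They fell outside 1.5 times without WT sham 2, WT sham 3 and Rad KO sham 2 (213 and 97, with 3 sham libraries left), with WT libraries alone (287 and 155), with Rad KO libraries alone (148 and 91), at an adjusted p under 0.01 (400 and 200) and at a log2 fold change of 1 or more in size (262 and 114). Leaving out WT sham 3 alone also moved them outside 1.5 times (611 and 416). Leaving out 1 library at a time gave 611 to 1116 higher and 416 to 948 lower, the lowest without WT sham 3 (611 and 416) and the highest without WT TAC 1. Within WT the ranges were 13 to 397 higher and 2 to 217 lower, with 13 and 2 without WT sham 3, and DESeq2 gave 588 and 345. Within Rad KO they were 3 to 350 and 4 to 186, with 3 and 4 without Rad KO sham 2, and DESeq2 gave 445 and 308. For the difference of effects, 0 genes in both directions became 0 to 4 higher (4 without WT sham 1) and 0 to 0 lower, and DESeq2 gave 7 and 1. With the replicate number as a block, which the correlations do not support as a pairing, the pooled counts were 1045 and 837, those within WT 381 and 159, those within Rad KO 299 and 132 and those of the difference 0 and 0. Of 146 named calls, 139 passed with the Esr1 covariate, 70 without the 3 sham libraries, 72 in WT alone, 49 in Rad KO alone and 124 to 145 with 1 library left out. Esr1 itself, which did not pass, changed sign in Rad KO alone (0.0059). The causes were not tested. The effect of depth on genes at a few CPM, such as Ms4a1 and Sfrp5, was not tested, and the Esr1 level and the number of sham libraries cannot be told apart where 3 of 6 are left out.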
